A study of Mus musculus with 10 samples.

Results

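The genes described here are 44 mouse genes of the interferon response and of nucleic acid sensing, among the 26335 rows of the deposited table. They were taken by symbol from a list of 4 transcription factors, 9 sensors and adaptors, 16 antiviral effectors, 5 oligoadenylate synthetases and relatives, 5 genes of ISG15 and ADP-ribosyl modification and 5 interferon-inducible GTPases. All 44 symbols were present, and 37 of them passed the filter on low values.

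Cells recognise foreign or misplaced nucleic acids with receptors in the cytosol. RIG-I (Ddx58) and MDA5 (Ifih1) bind double-stranded RNA and signal through the mitochondrial adaptor Mavs, whereas cGAS (Mb21d1) binds double-stranded DNA and signals through the adaptor STING (Tmem173). Both routes lead to type I interferon, whose receptor activates transcription factors such as Stat2 and Irf9, and these turn on the interferon-stimulated genes, many of which block viral replication. Mitochondrial DNA and RNA that reach the cytosol can be read by the same receptors.

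RNA was sequenced from mSCLC-2405 cells, a single mouse small cell lung cancer line derived from a primary tumor and grown in RPMI medium with fetal bovine serum. There were 5 libraries labelled control and 5 labelled stiripentol. Stiripentol, an antiseizure drug, was given at 250 μM for 48 h, and the sample records name DMSO as the alternative to it. The comparison asks which genes the drug changed. The labels do not say whether the libraries of a group came from separate cultures, so a p-value measures the spread between these libraries, which may be technical.

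The values were log2 CPM, in which CPM is a gene's share of all reads of its library on a fixed scale. Control libraries held 22375625 to 65299372 reads in total and stiripentol libraries 55015760 to 60670901, control 5 being the shallowest. By their correlation across all genes, the libraries formed 2 clusters within each group, with r of 0.983 to 0.997 inside a cluster and 0.920 to 0.939 between the clusters of a group. Controls 4 and 5 with stiripentol 1 and 2 are called the cluster of 2, and controls 1 to 3 with stiripentol 3 to 5 the cluster of 3. The clusters of the 2 groups were matched by their size and by the numbering in the study's own table, and the labels give no batch. This match was not tested, and changes within a cluster, or their difference, have meaning only if it is right. A gene without reads was listed at -4.82 in controls 1 to 3 and at -4.74 in the other 7 libraries, so controls 1 to 3 had been normalized apart from the rest. Changes of the members within each cluster are given with the pooled ones below, whereas other genes are mostly given pooled.

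Of the neuroendocrine markers, Insm1 reached at most 10 reads in any library and Syp at most 20, whereas Ncam1 stood at 6.69 log2 CPM in control and was called higher, by 0.46. Neurod1, Chga and Calca were not analysed here. The leukocyte marker Ptprc had at most 3 reads in any library, but Cd68, a lysosomal membrane protein of macrophages, was 3.21 log2 units higher with stiripentol. The summed level of the 5 leukocyte markers was 6.61 to 18.7 CPM in control and 59.0 to 104 CPM in stiripentol libraries, with 2 of the 5 above the filter and 1 called higher. Of the 5 fibroblast markers, 3 were called lower, and the sum of the 5 was 346 to 490 CPM in control and 149 to 184 CPM with stiripentol. The 4 epithelial markers summed to 2278 to 2598 CPM in control and 1544 to 2145 CPM with stiripentol, a sum carried by Krt8 and Krt18. Krt8 was called lower and Krt18 was not called. Epcam had at most 1 read in any library. Cdh1, also below the filter, had 12 to 40 reads over the controls and 11 to 63 with stiripentol. The 3 tuft-like markers summed to 1.97 to 7.05 and 25.2 to 59.8 CPM, a rise carried by Avil, which was called higher. Pou2f3 and Trpm5 were below the filter and went the other way. Pou2f3 had 49 to 260 reads over the controls and 3 to 16 with stiripentol, and Trpm5 7 to 21 and 0 to 8. The part of these markers in the results below was not tested.

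Interferon-stimulated genes are known to carry an interferon-stimulated response element in their promoters, to which Stat2 and Irf9 are recruited, or a gamma-activated site. The cores GAAANNGAAA and TTCNNNGAA were searched on both strands of RefSeq promoter windows of 300 bases, from 250 bases before to 50 after the gene's start. Windows were at hand for 33 of the 44 members. The first core was in 16 of the 33 (48.5%), against 3.99% of the 27025 genes with a window, and the second in 9 of the 33 (27.3%), against 9.55%. The 150 bases before the start are shown for 2 called members with the first core that moved in opposite directions (Rsad2 and Irgm1), for a called member with the second (Irf1) and for Isg15, where matches of the first core overlap each other. Capitals mark the match, which for Rsad2 is on the other strand. All run 5′ to 3′ on the gene's strand in GRCm38.p6.
Rsad2, chr12:26456453-26456602, minus strand: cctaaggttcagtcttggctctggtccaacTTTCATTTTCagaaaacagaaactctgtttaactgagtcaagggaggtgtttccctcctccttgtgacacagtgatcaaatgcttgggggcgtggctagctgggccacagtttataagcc
Irgm1, chr11:48871421-48871570, minus strand: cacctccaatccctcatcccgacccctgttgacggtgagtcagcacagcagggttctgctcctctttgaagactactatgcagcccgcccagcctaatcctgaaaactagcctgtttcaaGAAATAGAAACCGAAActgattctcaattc
Irf1, chr11:53769864-53770013, plus strand: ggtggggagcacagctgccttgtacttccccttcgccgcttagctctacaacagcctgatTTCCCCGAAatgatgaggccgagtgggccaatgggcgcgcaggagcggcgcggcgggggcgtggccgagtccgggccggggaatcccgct
Isg15, chr4:156200819-156200968, minus strand: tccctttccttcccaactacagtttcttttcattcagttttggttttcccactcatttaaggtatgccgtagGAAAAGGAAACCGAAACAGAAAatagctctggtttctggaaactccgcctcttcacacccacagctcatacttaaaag
Irgm1 had 2 overlapping matches, starting 30 and 24 bases before the start, and Isg15 had 3. A match is a run of letters and does not show that a factor bound there.

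With all 10 libraries, 8 of the 37 tested members were called at an adjusted p under 0.05, with 4 higher and 4 lower after stiripentol. Rsad2 and Mx2, which restrict viruses, were higher by about 2 log2 units, and the transcription factor Irf1 and the adaptor Mavs by less than 1. The DNA sensing adaptor Tmem173 and the antiviral gene Rtp4 were lower by more than 1 log2 unit, and the GTPase Irgm1 and the antiviral gene Ifit2 by about 0.5. The 8 calls are 21.6% of the tested members, against 27.7% of the 12306 genes tested. By direction, 10.8% of the members were called higher and 10.8% lower, against 13.6% and 14.1% of all genes, so calls were no more frequent among the members than among all genes. These counts include Rsad2, Mx2 and Rtp4, which passed the filter on the mean of all libraries only through the group where they were high. The 5 stiripentol libraries lay above the 5 controls for 3 members (8.11%), against 13% of all genes, and below them for 5 members (13.5%), against 14.3%. The median change was -0.25 over the members and -0.06 over all genes. The calls of Irf1, Mx2, Rsad2, Tmem173 and Mavs were lost when the stiripentol libraries were set against controls 4 and 5 alone, the controls normalized with them (adjusted p 0.136 to 0.364). Their changes were then 0.24, 1.01, 1.09, -0.90 and 0.33. Controls 4 and 5 are also the only controls of the cluster of 2, so normalization and cluster cannot be told apart here. With 1 mean per group and cluster, limma called 0 of the 12306 genes, and 0 members had an unadjusted p under 0.05. In bulk RNA, a change in RNA per cell and a change in the share of cells that carry it cannot be told apart.

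**Figure D1:**
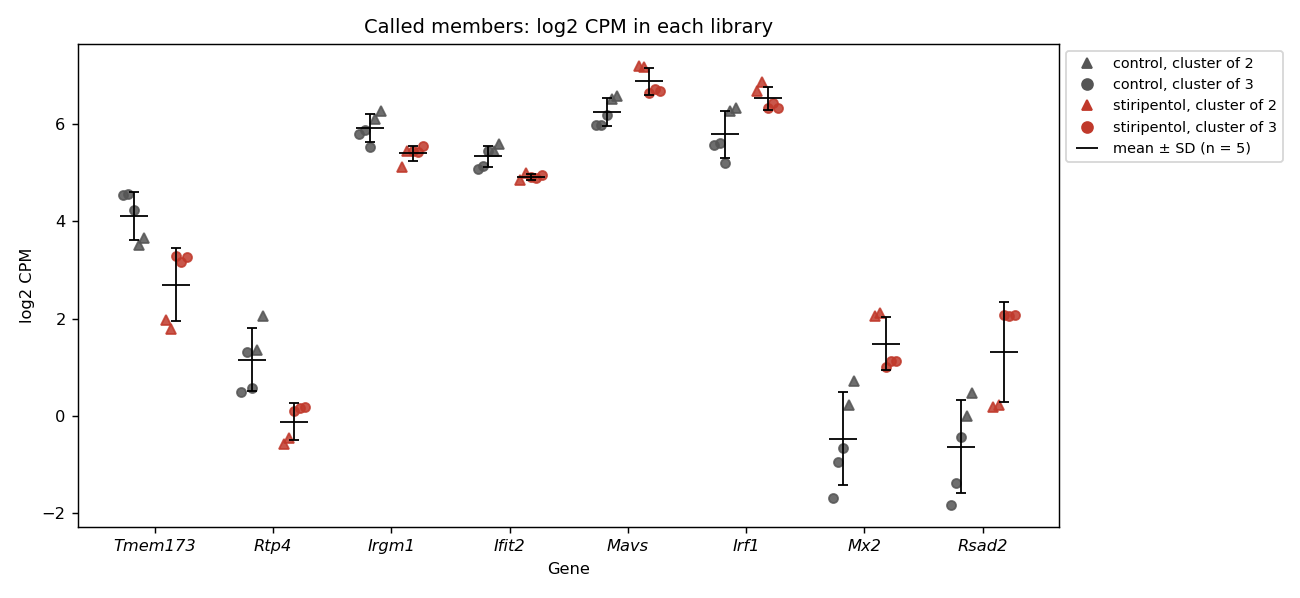
Log2 CPM (vertical axis) of the 8 called members in each library, with control in grey and stiripentol in red. Triangles mark the cluster of 2, circles the cluster of 3, and bars the mean ± SD (n = 5); the Rsad2 values of stiripentol 1 and 2 lie within the range of the controls, whereas those of stiripentol 3 to 5 lie above it.

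Among the transcription factors, Irf1, which is induced by interferon gamma, stood at 5.56, 5.61, 5.20, 6.27 and 6.32 log2 CPM in controls 1 to 5 and at 6.69, 6.86, 6.34, 6.44 and 6.33 in stiripentol 1 to 5. Every stiripentol library was above every control, but controls 4 and 5 came within 0.1 of the lowest stiripentol library. The change was 0.74 (SE 0.22, limma adjusted p = 0.0314), and it was 0.48 in the cluster of 2 and 0.91 in the cluster of 3. The gene shares exon sequence with Gm17334 on the opposite strand, and the strand setting of the counting is not given in the sources used here. The other 3 factors, Irf7, Irf9 and Stat2, changed by 0.05 to 0.38 and were not called, with -0.37, -0.55 and -0.37 in the cluster of 2 and 0.88, 0.61 and 0.33 in the cluster of 3. Within clusters, Irf9 was called in both, Irf7 in the cluster of 3 and Stat2 in the cluster of 2. Irf7, the master regulator of type I interferon genes, ranged from 1.04 to 3.32 log2 CPM over the controls and from 2.12 to 2.94 with stiripentol, so the stiripentol libraries lay inside the control range.

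Among the sensors of RNA, Ddx58 was at 5.03, 5.10, 5.36, 5.55 and 5.86 log2 CPM in controls 1 to 5 and at 5.54, 5.56, 5.59, 5.52 and 5.62 with stiripentol. Its pooled change of 0.18 (95% interval -0.16 to 0.53) was not called. Within clusters it was -0.16 in the cluster of 2 and 0.41 in the cluster of 3, the latter called (limma adjusted p = 0.00587). Ifih1 was at 3.86, 4.04, 3.98, 4.93 and 5.22 in control and at 3.47, 3.48, 3.80, 3.68 and 3.82 with stiripentol. Every stiripentol library of Ifih1 was below every control, yet the change of -0.75 (SE 0.27) missed the threshold (limma adjusted p = 0.0606). The controls of the cluster of 2 stood 1.12 above those of the cluster of 3. Within clusters the change was -1.60 in the cluster of 2, which was called (limma adjusted p = 2e-06), and -0.19 in the cluster of 3, and Ifih1 was also called with the cluster as a term (limma adjusted p = 0.0256). Dhx58, also called LGP2, a relative of both that lacks their signalling domain, was at 1.01, 1.57, 1.36, 3.11 and 3.26 in control and at 1.71, 1.89, 2.32, 2.41 and 2.25 with stiripentol. All stiripentol libraries fell between the 2 clusters of controls, and the pooled change of 0.05 (limma adjusted p = 0.935) was made of -1.39 in the cluster of 2 and 1.02 in the cluster of 3. Dhx58 shares exon sequence with Dhx58os on the opposite strand.

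Mavs, the adaptor through which these sensors signal, stood at 5.98, 5.99, 6.20, 6.52 and 6.59 log2 CPM in control and at 7.20, 7.17, 6.65, 6.73 and 6.68 with stiripentol. The groups did not overlap. The change was 0.63 (SE 0.17, limma adjusted p = 0.0208) and had the same size within both clusters, 0.63 in each. Trim25, the ubiquitin ligase that activates RIG-I, changed by -0.47 (limma adjusted p = 0.193): stiripentol 1 and 2 were at 5.42 and 5.74, while the other 8 libraries lay between 6.66 and 6.85. The change of Trim25 was -1.21 in the cluster of 2 and 0.03 in the cluster of 3, where median centring turned its sign. Eif2ak2, the kinase PKR, which stops translation when it binds double-stranded RNA, was at 6.10, 6.21, 6.02, 5.91 and 6.23 in control and at 3.69, 3.56, 5.72, 5.60 and 5.72 with stiripentol. Every stiripentol library of Eif2ak2 was below every control, with stiripentol 1 and 2 by far the lowest. Its change of -1.23 (SE 0.44, limma adjusted p = 0.0607) was -2.44 in the cluster of 2 and -0.43 in the cluster of 3, and it was called within each (limma adjusted p = 1.12e-07 and 0.00145).

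For the DNA route, Mb21d1, which encodes the sensor cGAS, was at 3.29, 2.95, 2.91, 0.71 and 0.83 log2 CPM in controls 1 to 5. With stiripentol it was at -0.96, -0.33, 1.37, 1.23 and 1.43. The clusters differed by about 2 log2 units in both groups, and stiripentol 3 to 5 lay between the controls of the 2 clusters. The pooled change was -1.59 (SE 0.67, limma adjusted p = 0.0971), but the change within clusters was alike at -1.42 and -1.71, and called in each (limma adjusted p = 0.00201 and 4.92e-05). It was called with the cluster as a term as well (limma adjusted p = 9.94e-05). Tmem173, the adaptor STING that relays the cGAS signal, was at 4.55, 4.56, 4.24, 3.52 and 3.66 in control and at 1.97, 1.79, 3.28, 3.16 and 3.27 with stiripentol. Every stiripentol library of Tmem173 was below every control. The change was -1.41 (SE 0.37, limma adjusted p = 0.0173), with -1.71 in the cluster of 2 and -1.21 in the cluster of 3. The 9th sensor, Zbp1, which binds left-handed nucleic acids, did not pass the filter, with 18 to 75 reads over the controls and 5 to 21 over the stiripentol libraries.

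**Figure D2:**
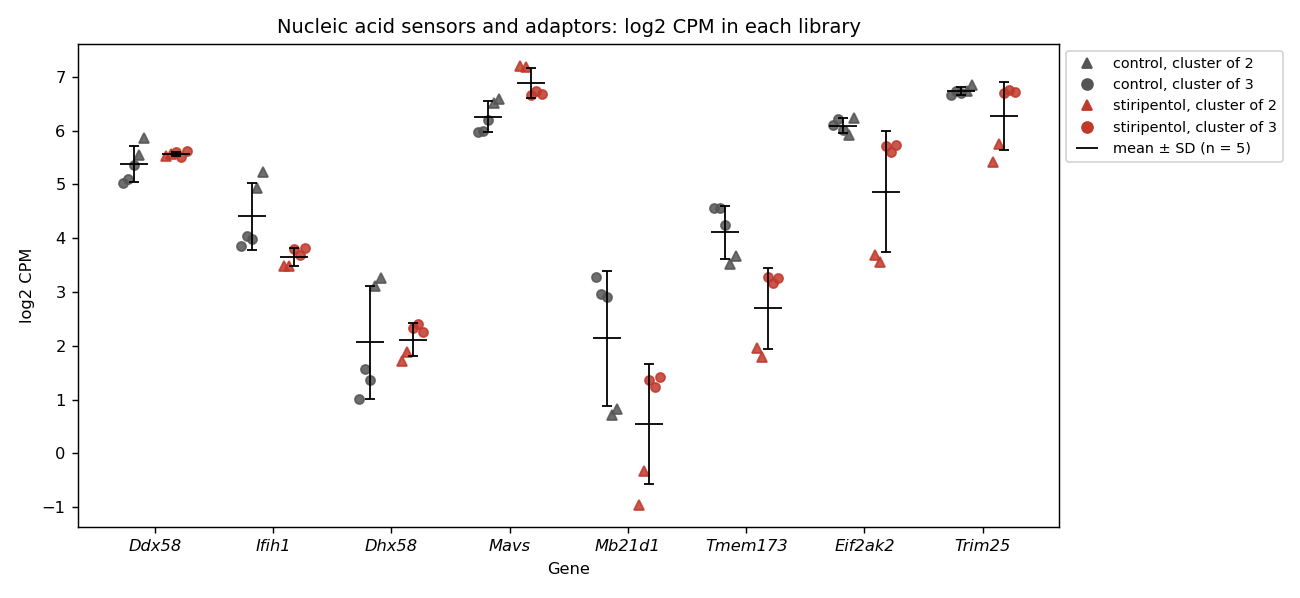
Log2 CPM (vertical axis) of the 8 tested sensors and adaptors in each library, with control in grey and stiripentol in red. Triangles mark the cluster of 2, circles the cluster of 3, and bars the mean ± SD (n = 5); Mavs is higher and Tmem173 lower with stiripentol without overlap, and Mb21d1 is lower in each cluster while its pooled groups overlap.

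Of the 16 antiviral effectors, 14 were tested, with 2 called higher, 2 called lower and 10 not called. Rsad2, which encodes viperin, an enzyme that makes a chain-terminating nucleotide, stood at -1.83, -1.39, -0.43, -0.01 and 0.46 log2 CPM in control. With stiripentol it was at 0.17, 0.21, 2.08, 2.05 and 2.08. The 3 stiripentol libraries of the cluster of 3 were far above all controls, whereas stiripentol 1 and 2 lay within the control range. The change was 1.96 (SE 0.57, limma adjusted p = 0.0287), and it was 3.29 in the cluster of 3 and -0.04 in the cluster of 2, the latter turning to 0.79 after quantile normalization and to 0.24 after median centring. Rsad2 passed the filter only through the stiripentol group, its control mean being -0.64. The call was lost without the filter (adjusted p = 0.0569) and without any 1 of controls 1 to 3 or stiripentol 3 to 5 (adjusted p 0.0521 to 0.0686). Cmpk2, its neighbor on chromosome 12, lies within 100 kb and did not pass the filter, with at most 43 reads.

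Mx2, a dynamin-like GTPase that restricts viruses, stood at -1.68, -0.95, -0.66, 0.23 and 0.72 log2 CPM in control and at 2.05, 2.12, 0.99, 1.13 and 1.13 with stiripentol. All 5 stiripentol libraries of Mx2 were above all 5 controls. The change was 1.95 (SE 0.46, limma adjusted p = 0.0121), with 1.61 and 2.18 in the clusters of 2 and 3, and the call held without each library in turn. Mx2 too passed the filter only through the stiripentol group, with a control mean of -0.47. Its neighbor Mx1 stayed below the filter, with 1 to 43 reads over the controls and 17 to 27 over the stiripentol libraries. Isg20, an exonuclease that degrades viral RNA, changed by 0.69 (limma adjusted p = 0.243) when pooled and was called higher within each cluster, by 0.53 and 0.80.

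Rtp4, an inhibitor of flavivirus replication, was at 0.48, 1.31, 0.58, 1.35 and 2.05 log2 CPM in control and at -0.59, -0.46, 0.10, 0.17 and 0.17 with stiripentol. The groups did not overlap, and the change was -1.28 (SE 0.34, limma adjusted p = 0.0202), with -2.23 in the cluster of 2 and -0.64 in the cluster of 3. Rtp4 passed the filter only through the control group, its stiripentol mean being -0.12. The deposited gene shares exon sequence with Gm45338 on the same strand, so its reads could be split. Ifit2, which binds viral RNA and limits its translation, was at 5.08, 5.15, 5.44, 5.45 and 5.58 in control and at 4.84, 5.00, 4.92, 4.88 and 4.95 with stiripentol. The groups of Ifit2 did not overlap, although the gap was less than 0.1. The change was -0.59 in the cluster of 2 and -0.31 in the cluster of 3. Its pooled value of -0.42 (SE 0.13, limma adjusted p = 0.0297) lost the call without control 3, 4 or 5 or stiripentol 1, 3 or 4 (adjusted p 0.0551 to 0.0681) and after quantile normalization or median centring (adjusted p 0.0832 and 0.0758).

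Its neighbors on chromosome 19, Ifit1 and Ifit3, were not called, with changes of -0.41 and -0.57. In the cluster of 2 both were called lower, by -2.03 and -2.10, and in the cluster of 3 they stood at 0.66 and 0.44 without a call. In Ifit1, the difference lay between clusters: stiripentol 1 and 2 were at -0.52 and -0.85 log2 CPM and stiripentol 3 to 5 at 1.40 to 1.58, while the controls ran from 0.15 to 1.43. Reads of Ifit3 and its near-copy Ifit3b can be shared, so its level is uncertain. Samd9l, a translation repressor, was at 5.68, 5.98, 5.22, 6.76 and 7.04 in control and at 3.81, 3.81, 5.79, 5.77 and 5.87 with stiripentol. Stiripentol 1 and 2 were lower than all other libraries, whereas stiripentol 3 to 5 lay within the controls. The change of Samd9l, -1.12 (limma adjusted p = 0.126), was -3.09 in the cluster of 2 and 0.19 in the cluster of 3. Ifi27, Bst2 (tetherin, which holds budding virus at the cell surface), Xaf1, Ifi35, Ifi44 and Lgals3bp changed by -0.70 to 0.58, without a call. Their changes ran from -1.85 to -0.11 in the cluster of 2 and from -0.13 to 1.19 in the cluster of 3.

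The oligoadenylate synthetases make the messenger that activates RNase L. Oas3 and Oasl2 were the only members of this group above the filter, with changes of -0.56 and -0.68 and no call. In the cluster of 2 both were called lower, at -1.35 and -2.11, and in the cluster of 3 they changed by -0.03 and 0.27 without a call. In control, Oas3 ran from 1.62 to 4.16 log2 CPM and Oasl2 from 1.03 to 3.25, both highest in controls 4 and 5. Oas1a, Oas2 and Oasl1 had at most 18, 27 and 30 reads. The OAS genes of the mouse are close copies of each other, so reads assigned to them are uncertain.

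With all 10 libraries and the deposited scaling, limma called none of the 4 tested genes of ISG15 and ADP-ribosyl modification. At an unadjusted p under 0.05 Parp14 alone passed. Isg15, a ubiquitin-like modifier, was at 2.55, 2.63, 2.61, 2.86 and 2.65 log2 CPM in control and at 2.15, 2.56, 3.78, 3.81 and 3.77 with stiripentol. Stiripentol 3 to 5 were nearly 1 log2 unit above all controls, whereas stiripentol 1 was below all of them. The change was 0.55 (limma adjusted p = 0.233) when pooled, and it was called after quantile normalization, at 0.84. In the cluster of 3 it was 1.19 and called (limma adjusted p = 2.42e-05). In the cluster of 2 it was -0.40 without a call, and quantile normalization turned it to 0.39. Parp14, a mono-ADP-ribosyltransferase, was at 4.35, 4.67, 4.26, 5.27 and 5.77 in control and at 3.01, 3.23, 4.49, 4.53 and 4.43 with stiripentol. Its change of -0.93 (limma adjusted p = 0.101) was -2.40 in the cluster of 2, which was called (limma adjusted p = 4.57e-07). In the cluster of 3 it was 0.06 without a call, and the sign turned there under both other scalings. The adjacent genes Parp9 and Dtx3l, whose exons overlap on opposite strands and whose proteins form a complex, changed by 0.04 and -0.03, and they were called in neither cluster. Usp18, the protease that removes ISG15, was below the filter, with 16 to 41 reads over the controls and 23 to 69 with stiripentol.

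All 5 interferon-inducible GTPases, which act on the membranes around intracellular pathogens, were tested. Irgm1, a regulator of the others and of autophagy, was at 5.79, 5.88, 5.54, 6.12 and 6.28 log2 CPM in control and at 5.13, 5.44, 5.46, 5.44 and 5.55 with stiripentol. Only control 3 reached down to the stiripentol range. The change was -0.52 (SE 0.15, limma adjusted p = 0.0287), with -0.91 in the cluster of 2 and -0.26 in the cluster of 3, and it lost the call without control 2, 4 or 5 or stiripentol 1 or 2 (adjusted p 0.0534 to 0.0594). The neighbors Gbp7, Gbp3 and Gbp2 on chromosome 3 changed by -0.25, -0.33 and -0.33, and Igtp by 0.18, without a call. In the cluster of 2 these 4 were called lower, at -1.02, -0.51, -0.73 and -1.04, and in the cluster of 3 only Igtp was called, at 0.98. Quantile normalization turned Gbp3 to 0.36 in the cluster of 2. GBP reads can be shared between near-identical genes, and Igtp shares exon sequence with Irgm2.

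**Figure D3:**
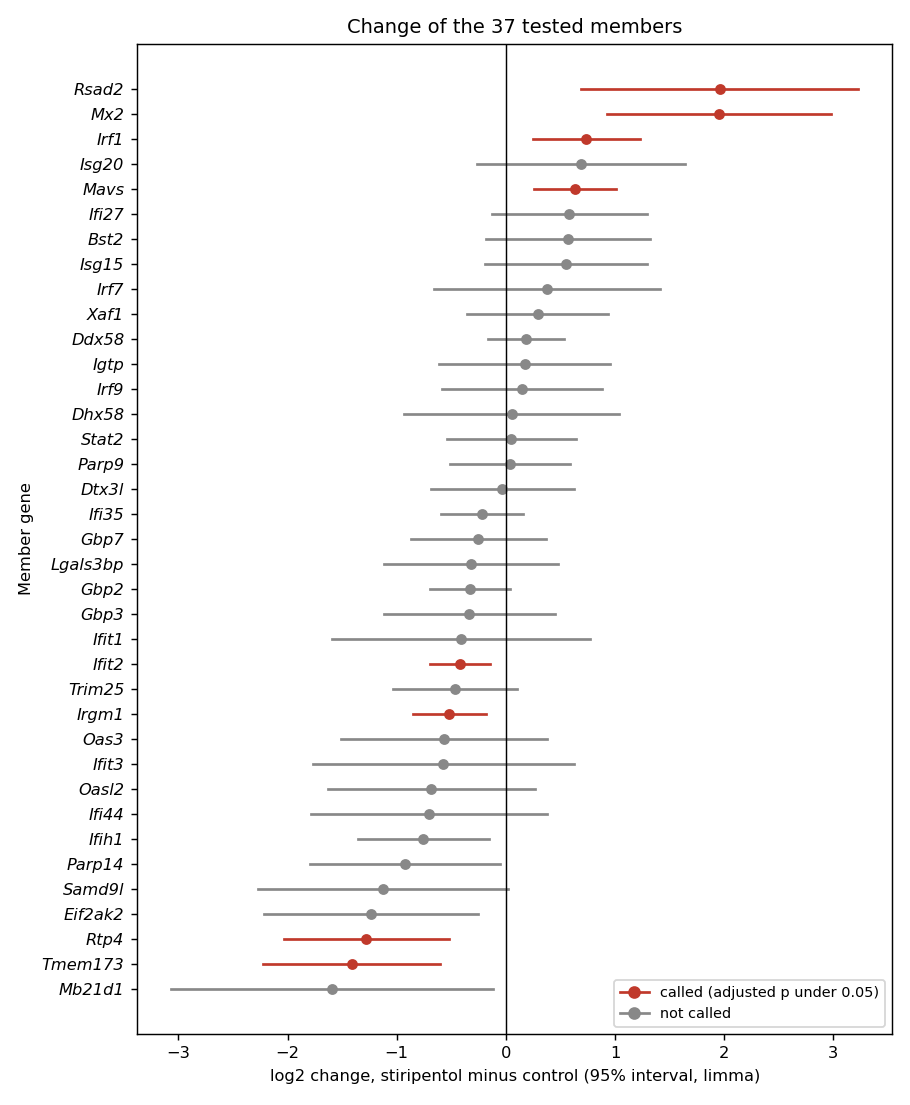
Log2 change with stiripentol minus control (horizontal axis) of the 37 tested members, with its 95% interval from limma. Red marks the 8 called members and grey the other 29; Mb21d1 has the lowest estimate, -1.59, and is not called, while Ifit2 is called at -0.42 with a narrow interval.

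The 29 members that were not called changed by -1.59 to 0.69, with adjusted p from 0.0606 to 0.942. A p above the threshold does not show that their levels were equal. At an unadjusted p under 0.05, 12 of the 37 tested members passed. The share of all genes at that threshold was not counted, and 27.7% of them passed even the adjusted one. The 12 therefore cannot be read as an excess. The 7 members below the filter had at most 18 to 75 reads in any library. Without the filter they were tested too and none was called, but with so few reads a difference may be missed.

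The libraries of the 2 clusters gave different pictures of these genes. In control, 29 of the 37 members (78.4%) were higher in both libraries of the cluster of 2 than in all 3 of the cluster of 3, against 36.8% of all genes. The reverse held for 2 members (5.41%), Tmem173 and Mb21d1, against 34.1% of all genes. The median difference between the clusters in control was 0.91 over the members and 0.02 over all genes. With stiripentol, 12 members (32.4%) were higher in both libraries of the cluster of 2, against 27.7% of all genes, and 21 (56.8%) were lower, against 59%. The median difference there was -0.53 over the members and -0.32 over all genes. The mean of the cluster of 2 was the higher one for 32 members in control and for 13 with stiripentol.

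**Figure D4:**
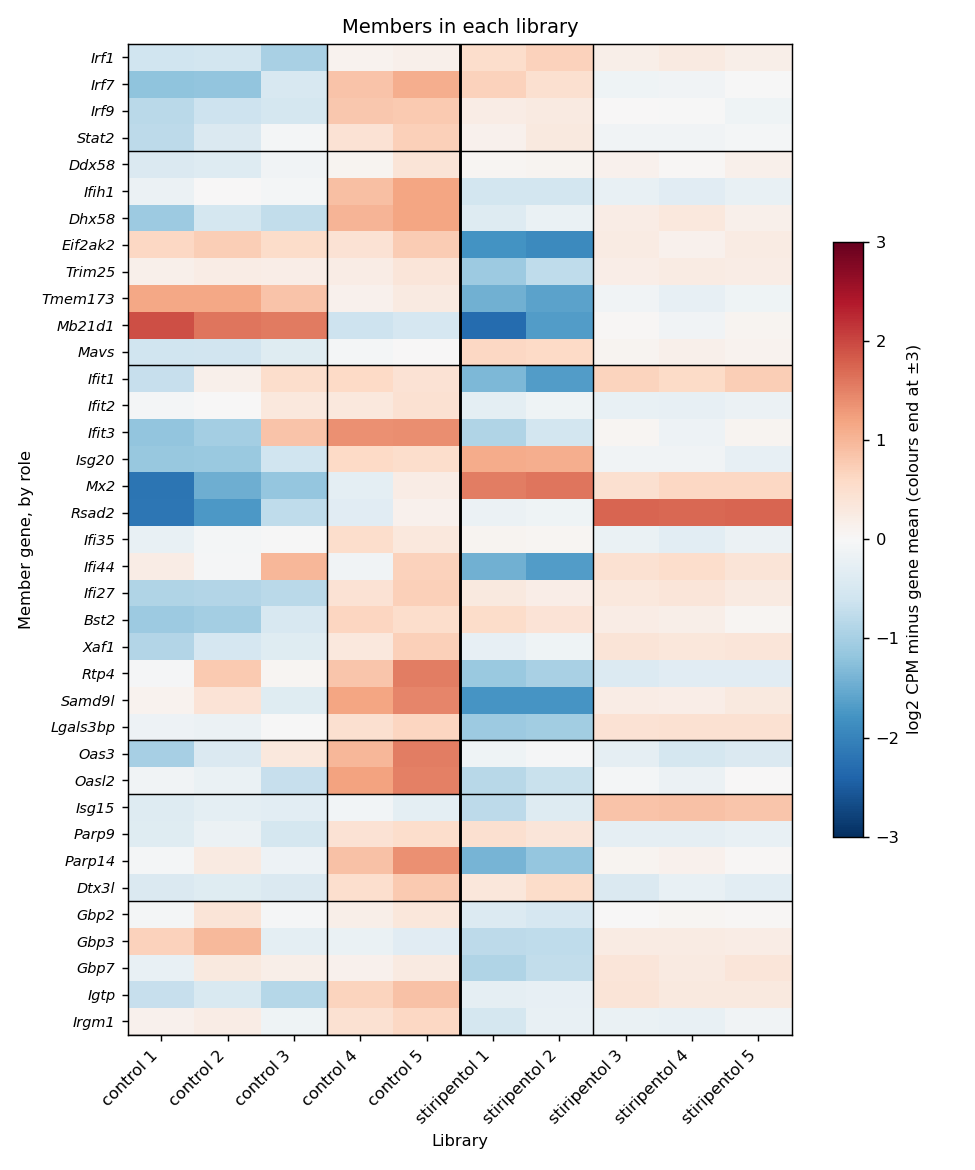
Log2 CPM minus the mean of the gene (colour scale, ending at ±3) for the 37 tested members, in rows by role, in the 10 libraries in columns. Controls 4 and 5 are redder than controls 1 to 3 in most rows, and stiripentol 1 and 2 are bluer than stiripentol 3 to 5 in 21 of the 37.

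Within the cluster of 2 (2 libraries against 2), limma called 26 members lower (70.3%), against 46.5% of all genes, and 4 higher (10.8%), against 25.7%. Within the cluster of 3 (3 against 3), it called 15 members higher (40.5%), against 37.7%, and 6 lower (16.2%), against 27%. The median change of the members was -0.73 in the cluster of 2 and 0.27 in the cluster of 3, and that of all genes -0.25 and 0.08. The scaling of the libraries bears on the first of these: median centring moved the median of all genes in the cluster of 2 to 0.02 and quantile normalization to 0.06. After these scalings the members' median there was -0.45 and -0.33. Of the 37 members, 21 and 20 were then called lower, against 37% and 34.6% of all genes. In the cluster of 2, quantile normalization turned the sign of 8 members (Isg15, Irf7, Rsad2, Ddx58, Bst2, Parp9, Dtx3l and Gbp3), of which Gbp3 had been called.

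The members called higher in both clusters were Isg20, Irf1, Mx2 and Mavs, which is 10.8% of the members against 15.3% of all genes. Those called lower in both were Ifit2, Rtp4, Irgm1, Eif2ak2, Tmem173 and Mb21d1, which is 16.2% against 18.8%. Irf9, Dhx58, Ifi27, Xaf1, Igtp and Lgals3bp were called lower in the cluster of 2 and higher in the cluster of 3, which is 16.2% against 11.4%. The opposite pattern was found in 0 members, against 2.25% of all genes. The estimates had opposite signs in the 2 clusters for 22 of the 37 members. The same count over all genes was not made, so no excess among the members can be read from it. The medians of all genes also had opposite signs (-0.25 and 0.08). Quantile normalization turned the sign of 8 members in the cluster of 2 and of 2 in the cluster of 3.

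The difference between the effects was tested as an interaction of treatment and cluster in limma, which takes the match of the clusters as given. It was called for 28 members (75.7%), against 63.3% of all genes. In all 28, the effect was lower in the cluster of 2, a direction found in 45.3% of all genes. After quantile normalization, 18 members (48.6%) had a lower effect in the cluster of 2, against 29.8% of all genes. A higher effect was called in 1 member, against 30.2% of all genes. In either direction these were 19 of the 37 members, against 7387 of the 12306 genes. The median difference between the effects was -1.26 over the members and -0.33 over all genes. The labels do not say how the clusters arose, and control 5, in the cluster of 2, was the shallowest library.

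**Figure D5:**
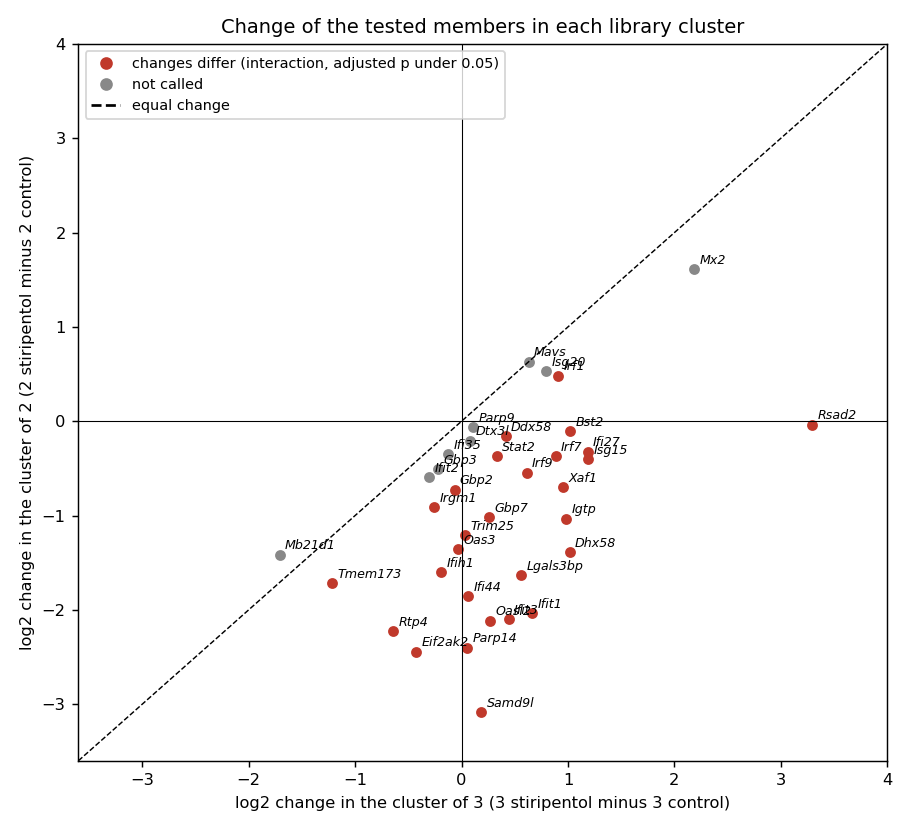
Log2 change of the 37 tested members in the cluster of 3 (horizontal axis) and in the cluster of 2 (vertical axis), with red points where limma called the interaction and a dashed line of equal change. The 28 red points lie below the line, with Rsad2 furthest to the right and Samd9l lowest.

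Of 122 other genes of the pathway on a chosen list, 113 were analysed, 91 were tested and 32 were called (35.2%), with 12 higher and 20 lower, against 27.7% of all genes. Among ligands and receptors, Ifnb1 and Ifne had at most 3 reads in any library, and the receptor chains Ifnar1 and Ifngr1 were called lower, with changes of -0.61 and -0.44 on the log2 scale. Ifnar2, Ifngr2, Ifnlr1 and Il10rb were tested and not called, with changes of 0.28, 0.13, 0.20 and -0.19. The other 8 ligand and receptor genes on the list were not analysed here. Of 24 tested signalling genes, 5 were higher and 3 lower. Irf2, Ptpn2 and Stat3 were higher by 0.74, 0.59 and 0.49. Irf3, the factor that Mavs and STING activate, fell by 0.99 (limma adjusted p = 0.0261), and Irf2bp1 fell by 1.58. In the clusters of 2 and 3, Irf3 changed by -1.77 and -0.48, Irf2bp1 by -2.69 and -0.83 and Ifngr1 by -0.825 and -0.178. Ifnar1 changed alike in both, by -0.63 and -0.60.

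Of 13 other tested sensors and adaptors, Ddx41, a helicase that binds DNA, was higher by 0.85, and Dhx9, Ifi204 and Lrrfip1 were lower (-1.71, -1.16 and -0.47). Of 11 genes of nucleic acid editing and removal, Supv3l1, the helicase that degrades mitochondrial RNA, was higher by 0.71. Samhd1, which depletes nucleotides, and Skiv2l, a helicase of the cytosolic exosome, were lower (-0.83 and -0.54). Of 37 other interferon-stimulated genes, 5 were higher and 10 lower. Of those called, the GTPases Tgtp1, Tgtp2 and Ifi47 had the most negative changes, at -3.12, -2.50 and -1.40, and Tgtp1 and Tgtp2 are near-copies whose reads can be shared. Gbp6, Oas1b and Tor3a were higher by 1.18, 1.14 and 1.10. Tgtp1 and Tgtp2 passed the filter only through the control group, and Gbp6 and Oas1b only through the stiripentol group.

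Several members lie next to each other in the genome. Within 100 kb of one another were 17 members in 7 groups, by GENCODE M21 positions on GRCm38. Neighbors did not always change alike: Parp14 changed by -0.93 where Dtx3l and Parp9 stayed within 0.04 of 0. Ifit2, Ifit3 and Ifit1 had similar pooled changes (-0.42, -0.57 and -0.41), although only Ifit2 was called. Exons of 11 members overlap another gene on the opposite strand and those of 5 members overlap one on the same strand, so their reads are uncertain. The first set includes Irf1, Dhx58, Eif2ak2 and Mb21d1 and the second Rtp4 and Parp14.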

How the data were processed

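RNA of 10 libraries of mSCLC-2405 cells (5 control, 5 stiripentol) was analysed. The table the authors deposited holds log2 CPM normalized with GENAVi, beside group means, p-values, q-values and fold changes that were not used. The submitters' processing notes name mm10; the aligner, annotation and counting strand are not given in the sources used here. The study's methods name a Lexogen QuantSeq 3′ kit and the labels TruSeq total RNA. The table held 26335 rows, in which 42 symbols were listed more than once.

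Whole reads were recovered from 100% of the values (tolerance 0.1 reads), and totals ran from 22375625 to 65299372. Depth covers counting error only. No library was a copy of another (chi-square per gene at least 7.25). The deposited values were compared with limma 3.58.1 (lmFit, eBayes with a mean-variance trend, two-sided, R 4.3.3) over 12306 genes with a mean log2 CPM above 0, with Benjamini-Hochberg adjustment and a threshold of 0.05. The scripts were tested on simulated data. Python 3.11.15, pandas 2.3.3 and numpy 2.4.6 were used for counts, and matplotlib 3.10.9 for plots.

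The members and lists were chosen with earlier results of these data known. Values per library are given for called members, the sensors and adaptors, and the 4 uncalled members with the largest absolute change; called pathway genes are named, at most 6 a list. The results of 2 listed genes are not reported here. Isg15, Ifit1, Trim25, Irf7 and the neighbors were described after their values were seen. Promoters are from RefSeq (GRCm38.p6). Alternatives were fits without 1 library, with a replicate block or with a cluster term, each cluster alone, cluster means, libraries sharing a prior, other scalings, filters, a pseudocount of 1 CPM, voom on recovered reads, an exact Mann-Whitney test and a minimum absolute log2 change of 1. The scalings and left-out libraries of the interaction test, and the scalings within clusters, were added after seeing the data.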

Additional observations from a re-analysis of the deposited data

Results flagged for a closer look

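In stiripentol libraries, Irgm1 stood at 5.13 log2 CPM in stiripentol 1, far from the next library at 5.44, with the highest at 5.55. The gap was 0.744 of the whole range, above the limit for 5 samples. It was the only one of 74 groups of 5 that passed the limit, where chance gives about 3.7. Without stiripentol 1 the change of Irgm1 was -0.45 (limma adjusted p = 0.0594).

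With the library clusters matched as above, the limma interaction was called for 28 of 37 tested members (75.7%), against 63.3% of all genes. In all 28 the effect of stiripentol was lower in the cluster of 2, a direction called in 45.3% of all genes. The match itself was not tested. Leaving out each library in turn gave 23 to 30 such members. Quantile normalization gave 19 and median centring 22, against 7387 and 7816 of the 12306 genes, so calls were then no more frequent among the members. In both, 1 member went in the other direction. The 18 and 21 members lower in the cluster of 2 stand against 29.8% and 31% of all genes.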

How the results depend on the processing

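Leaving out 1 library gave 1 to 5 members called higher and 2 to 5 called lower, against 4 and 4, and Mx2, Rtp4 and Tmem173 kept the call each time. Irf1 lost it without controls 1, 2 or 3 or stiripentol 1 or 2, and Mavs without controls 1 or 2 or stiripentol 2. No numbering paired the libraries in every pair: the deviations of same-numbered libraries had a mean correlation of -0.152 by the sample titles (0 of 5 pairs over 0.1) and 0.184 by the study's table (4 of 5). As a replicate block, the titles' numbers left 1 member higher (Rsad2), 1 lower (Rtp4) and 20 of 32 pathway genes called, and those of the study's table kept 6 of the 8 calls, losing Rsad2 and Irgm1 (adjusted p 0.0736 and 0.0501) and adding Isg20 and Mb21d1. A cluster term gave 7 members lower and kept all 8 calls. The cluster of 2 alone gave 26 members lower, 72 pathway genes and a median of -0.725, and the cluster of 3 alone 15 members higher, 71 pathway genes and a median of 0.268, against -0.252 for all libraries. With 1 mean per group and cluster, limma called 0 members in either direction and 0 pathway genes, with 0 members at an unadjusted p under 0.05. Against controls 4 and 5 alone, which share their prior with the stiripentol libraries, 0 members were higher (1 at an unadjusted p under 0.05) and 9 lower. These are also the only controls of the cluster of 2. With no filter, 2 were called higher, Mx2 and Mavs. With a mean log2 CPM above 1, 2 were also called higher, Irf1 and Mavs, but Mx2, Rsad2 and Rtp4 were then not tested. An absolute log2 change of at least 1 left 2 higher, 2 lower and 9 pathway genes. Signs were followed for the called members, the tested sensors and adaptors except Trim25, and the 4 uncalled members with the largest absolute change. With a call in the fit of all libraries or in the alternative, the sign turned for Rsad2 in the cluster of 2 (-0.0375). It also turned for Dhx58 in the cluster of 2 (-1.39) and against controls 4 and 5 (-1.07). Without a call, signs turned in further settings, among them Ddx58 in the cluster of 2 (-0.162) and Samd9l in the cluster of 3 (0.186). The cause of these shifts was not tested.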
